A study of Mus musculus with 7 samples.

Results

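A set of 9 genes that control plasminogen and blood clotting was measured in mouse embryonic fibroblasts (MEFs) and mouse embryonic stem cells (mESCs): the proteases Plat and Plau, the receptors and cofactors Plaur, F3 and Thbd, the serpin family members Serpine2 and Serpinf1, and the Kunitz-type inhibitors Tfpi and Tfpi2. They were chosen by symbol from the 55484 genes of the count table, with earlier results of these data known, and all 9 were found there. MEFs are connective tissue cells cultured from embryos. Pluripotent cells of the early embryo give rise to mESC lines. Both cell types carried the C57/Bl6 background, with no other genotype, treatment, age or sex given in the labels. For 4 MEF and 3 mESC samples, RNA-seq libraries were prepared from the 3′ ends of transcripts with molecular identifiers. They are called O1 to O4 for MEFs and Y1 to Y3 for mESCs, after the deposited columns. The extraction text of the labels describes blood stem cells of young and aged mice, and the methods give a sort on surface markers for the chromatin libraries only, so whether the RNA came from sorted cells is not known.

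Plasminogen is an inactive protease of blood plasma that is turned into plasmin, which dissolves fibrin and cleaves extracellular matrix. Plat (tissue plasminogen activator) and Plau (urokinase) make that cut, Plaur holds urokinase at the cell surface, and serpins block the activators. Clotting begins when F3 (tissue factor) meets factor VII, Tfpi stops this step, and Thbd (thrombomodulin) turns thrombin from a clotting enzyme into an activator of protein C. Cultured fibroblasts are a classical source of urokinase, tissue factor and protease nexin-1, the product of Serpine2.

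Library totals ran from 6528643 to 11441278 counts, and 3 counts, taken as the floor of a library, equalled 0.288 to 0.477 CPM, the usual depth-normalised count, for which library sizes were scaled by edgeR's TMM method. The labelled cell types matched their markers. All 16 fibroblast markers were lower and all 12 pluripotency markers higher in mESCs. The defining fibroblast marker Thy1 held 325 to 386 CPM in MEFs and 6.25 to 7.80 CPM in mESCs. Over 10 endothelial genes, the markers summed to 19.6 to 28.7 CPM in MEFs and 34.4 to 59.3 CPM in mESCs. Sums over 12 blood and platelet genes were 19.2 to 51.8 CPM in MEFs and 73.3 to 82.3 CPM in mESCs. For 12 trophoblast genes they were 30.9 to 54.1 CPM in MEFs and 37.0 to 41.5 CPM in mESCs. The endothelial and the blood and platelet sums were thus higher in every mESC library, while single genes of these lists went both ways. Of 5 endothelial genes tested as described below, 1 was lower and 1 higher in mESCs. Of 6 blood and platelet genes tested, 2 were lower and 1 higher. Over all genes tested, 25.0% were lower and 22.8% higher. The part of such cells in the levels of the regulators was not tested. Smooth muscle markers, such as Acta2, which cultured fibroblasts also express, summed to 6180 to 7508 CPM over 6 genes in MEFs and 51.7 to 74.3 CPM in mESCs. Their part in the MEF levels was not tested. In bulk libraries, fewer cells of a type and less RNA per cell cannot be told apart.

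The 9 genes, and the gene lists used further below, were chosen with earlier results of these data known. Their counts beside the shares of all genes therefore describe the sets and do not test them. All 9 regulators were lower in mESCs at an edgeR adjusted p under 0.05, and 0 were higher. This p comes from the quasi-likelihood test of edgeR, fitted to 4 MEF and 3 mESC libraries and adjusted after Benjamini and Hochberg over 16580 genes. Of all genes tested, 25.0% were lower and 22.8% higher in mESCs. The fall ran from about 2-fold for Tfpi, with 2.20 times as much in MEFs, to 110 times as much in MEFs for Serpinf1 among the 8 genes with counts in mESCs, and Tfpi2, with 0 counts there, has only a bound. Every mESC library lay under every MEF library for each of the 9 genes, a pattern held by 26.2% of the genes tested. The median fitted log2 fold change was -3.67 over the 9 genes and 0.04 over all genes tested. Against a fold change of 2, 7 of the 9 were still called, while 13.7% of all genes passed that test as lower. Plaur (edgeR adjusted p = 0.291) and Tfpi (edgeR adjusted p = 0.243) were the other two. Without scaling beyond library size the median of all genes moved by 0.28 on the log2 scale and the balance of calls turned, from 3785 higher and 4153 lower to 5180 higher and 3345 lower, and all 9 regulators were still called lower. Of the 9 genes, 6 passed the count filter on their mESC libraries as well. Plat, Thbd and Tfpi2 passed only through the MEF libraries, so that they had to differ in order to be tested. The study describes its expression data as 3 biological replicates for mESCs and MEFs, while 4 MEF libraries are present here. The labels do not name the culture or embryo behind a library. The p-values therefore measure the spread between these samples, part of which may be technical. The Y-linked genes Ddx3y, Eif2s3y and Kdm5d summed to 2.11 and 0.610 CPM in O1 and O2. In O3 and O4 the sum was 90.6 and 88.4 CPM. It was 1.73 and 1.82 CPM in Y1 and Y2 and 35.9 CPM in Y3. Repeat libraries of the same cells throughout a group would not differ in this way. Whether O1 with O2, O3 with O4 or Y1 with Y2 are such repeats is not known.

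**Figure D1:**
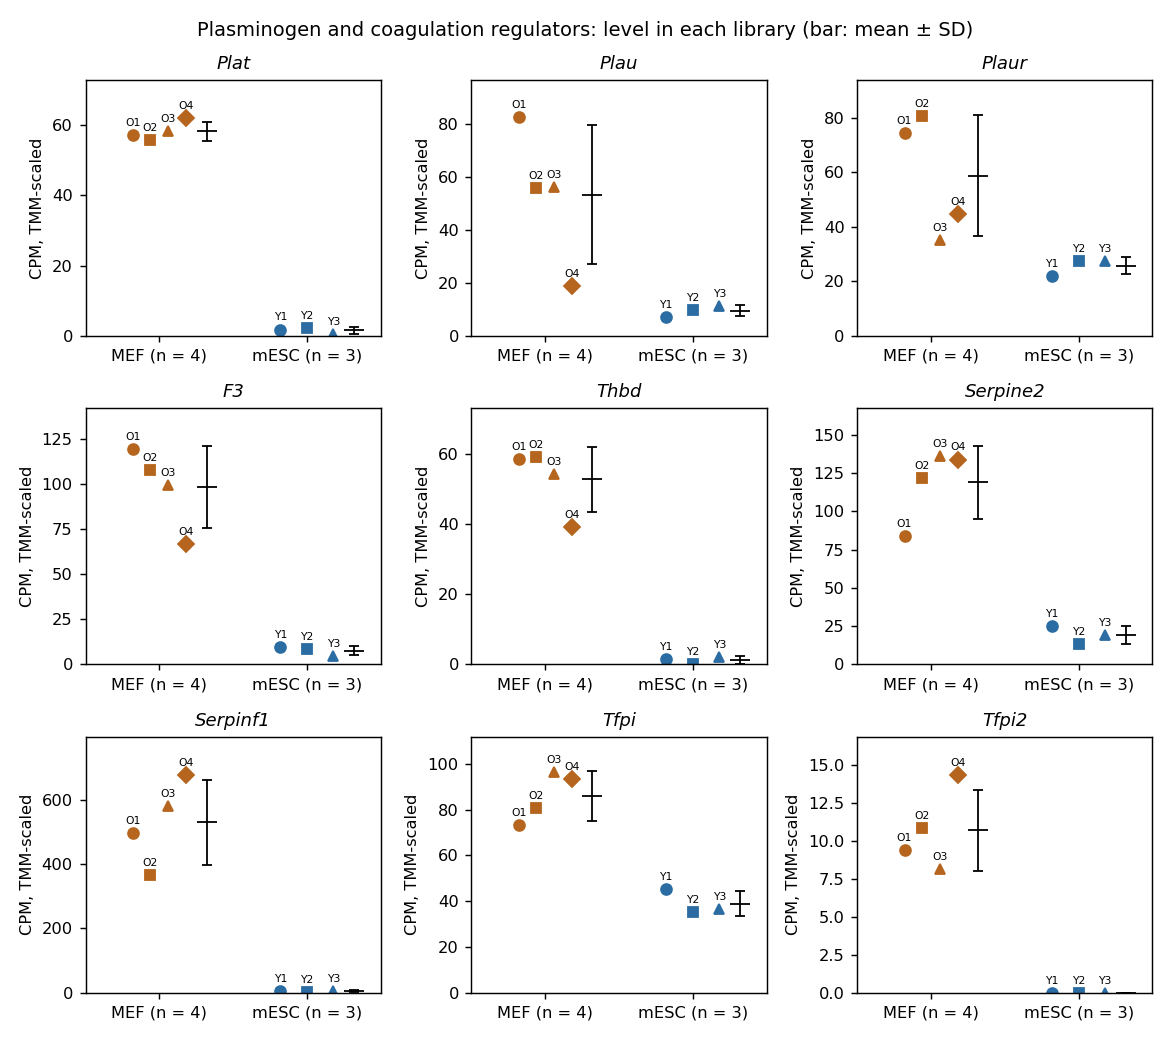
CPM of each regulator in every library (vertical axes, linear, starting at 0), with MEF libraries O1 to O4 in brown, mESC libraries Y1 to Y3 in blue and black bars for the mean ± SD of 4 and 3 libraries. All mESC points lie under all MEF points, with the smallest gaps in CPM for Plaur (35.2 CPM in O3 against 27.6 CPM in Y3) and Plau (18.9 CPM in O4 against 11.4 CPM in Y3).

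The promoter sequence of 6 of the 9 regulators was found among the RefSeq windows (GRCm38.p6), in 9 windows, since Tfpi and Tfpi2 have several annotated starts. Only the 250 bases before the start are considered. The 9 windows are not all separate sequences, since 2 of those of Tfpi2 overlap each other. These windows were searched on both strands for the AP-1 motif TGANTCA, the GC box GGGCGG and the TATA box TATAAA, which were picked with the results known. AP-1 is the Fos and Jun factor family. Its motif occurs in 6.75% of all 32851 windows and in 3 of the 9, which belong to F3, Plaur and Tfpi2. GC boxes occur in 32.7% of all windows and in 6 of the 9, and the TATA box in 12.4% and in 1. Shown here, 5′ to 3′ on the gene's strand and with AP-1 matches in capitals, are the 3 windows with a match and that of Serpinf1, the gene with the largest measured fold, which has none. The F3 window is chr3:121723287-121723536 (plus strand), with matches that begin 146 and 135 bases before the start. The Plaur window is chr7:24462233-24462482 (plus strand), with a match 69 bases before the start. Of 3 Tfpi2 windows, the one shown is chr6:3968376-3968625 (minus strand), at a start inside the gene, with a match 77 bases before it, and the other 2, at the upstream end of the gene, have no match. The Serpinf1 window is chr11:75422624-75422873 (minus strand). A match is a description of letters, and binding was not measured here.
F3: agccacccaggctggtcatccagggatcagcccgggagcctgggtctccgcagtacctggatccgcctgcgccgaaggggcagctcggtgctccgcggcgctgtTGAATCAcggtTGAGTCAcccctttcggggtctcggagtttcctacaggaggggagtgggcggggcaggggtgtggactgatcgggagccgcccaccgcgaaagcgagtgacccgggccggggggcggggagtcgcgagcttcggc
Plaur: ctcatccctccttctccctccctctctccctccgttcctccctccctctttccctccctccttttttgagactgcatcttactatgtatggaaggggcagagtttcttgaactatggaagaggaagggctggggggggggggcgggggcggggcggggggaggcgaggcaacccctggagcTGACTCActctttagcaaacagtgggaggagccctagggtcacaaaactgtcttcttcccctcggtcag
Tfpi2: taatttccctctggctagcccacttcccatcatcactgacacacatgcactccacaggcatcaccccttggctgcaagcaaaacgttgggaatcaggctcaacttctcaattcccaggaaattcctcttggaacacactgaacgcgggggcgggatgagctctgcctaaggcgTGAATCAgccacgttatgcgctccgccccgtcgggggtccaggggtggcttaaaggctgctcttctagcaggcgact
Serpinf1: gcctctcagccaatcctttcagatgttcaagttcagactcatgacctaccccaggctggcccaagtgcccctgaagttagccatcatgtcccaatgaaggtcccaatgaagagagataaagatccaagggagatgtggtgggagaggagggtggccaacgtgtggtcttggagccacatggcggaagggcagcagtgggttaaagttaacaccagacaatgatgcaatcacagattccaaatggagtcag

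The plasminogen activators differed in size of change and in spread. Plat, which encodes tissue plasminogen activator (chromosome 8 of GRCm38, 22757727 to 22782844, plus strand), held 57.1, 55.8, 58.2 and 62.0 CPM in the 4 MEF libraries and 1.84, 2.39 and 0.590 CPM in mESCs, where the counts were 17, 21 and 5. The MEF libraries were close to one another and far above the mESC libraries. The log2 fold change of mESCs against MEFs was -5.16 (SE 0.355, edgeR adjusted p = 1.08e-06), and the mESC mean was 2.76% of the MEF mean. Plau, which encodes urokinase (chromosome 14, 20836660 to 20843385, plus strand), held 82.6, 55.8, 56.2 and 18.9 CPM in MEFs and 7.26, 9.66 and 11.4 CPM in mESCs. Its lowest MEF library, O4, came near to the mESC libraries without overlapping them. Plau had a log2 fold change of -2.50 (SE 0.430, edgeR adjusted p = 0.000715), with means of 53.4 ± 26.2 CPM in MEFs (SD, n = 4) and 9.45 ± 2.10 CPM in mESCs (SD, n = 3).

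Plaur, the cell surface receptor of urokinase (chromosome 7, 24462484 to 24475968, plus strand), held 74.5, 80.6, 35.2 and 44.8 CPM in the MEF libraries. In mESCs it held 22.1, 27.4 and 27.6 CPM, from 204 to 241 counts, so it was well above the floor in both cell types. The MEF libraries O1 and O2 were high and O3 and O4 low, the latter nearer to the mESCs. With a log2 fold change of -1.19 (SE 0.290, edgeR adjusted p = 0.00593), its mESC mean was 43.7% of the MEF mean.

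F3, the tissue factor that starts clotting (chromosome 3, 121723537 to 121735048, plus strand), held 119, 108, 99.3 and 66.5 CPM in MEFs and 9.75, 8.63 and 4.60 CPM in mESCs. The lowest MEF value was O4 and the lowest mESC value Y3, and the groups stood far apart. F3 showed a log2 fold change of -3.67 (SE 0.308, edgeR adjusted p = 4.40e-06). Thbd, the thrombin cofactor (chromosome 2, 148404466 to 148408188, minus strand), held 58.6, 59.3, 54.5 and 39.3 CPM in MEFs. In mESCs its counts were 15, 1 and 19, which gave 1.63, 0.114 and 2.24 CPM, so that Y2 was under the floor. Thbd had the second largest measured fall (log2 fold change -5.31, SE 0.526, edgeR adjusted p = 1.52e-05). That rank rested on Y2, since without this library the log2 fold change was -4.77 for Thbd and -5.55 for Plat.

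Of the serpin family members, Serpine2, which encodes protease nexin-1, an inhibitor of thrombin and of the plasminogen activators (chromosome 1, 79794197 to 79861180, minus strand), held 84.2, 122, 136 and 134 CPM in MEFs and 25.0, 13.6 and 19.5 CPM in mESCs. O1 was the low MEF library here. Serpine2 had a log2 fold change of -2.62 (SE 0.257, edgeR adjusted p = 1.41e-05). Serpinf1 encodes PEDF, a secreted member of the serpin family that acts on blood vessels and does not inhibit proteases (chromosome 11, 75409769 to 75422701, minus strand). It held 497, 365, 580 and 676 CPM in MEFs and 5.20, 1.93 and 7.31 CPM in mESCs, from 48, 17 and 62 counts. The mESC mean was 0.909% of the MEF mean, with a log2 fold change of -6.78 (SE 0.437, edgeR adjusted p = 6.67e-07).

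The related Kunitz-type inhibitors Tfpi and Tfpi2 differed in what was detected in mESCs, with at least 309 counts of Tfpi and 0 of Tfpi2 in each library. Tfpi, which blocks the complex of tissue factor and factor VII (chromosome 2, 84432855 to 84476775, minus strand), held 73.4, 80.8, 96.5 and 93.2 CPM in MEFs and 45.2, 35.1 and 36.7 CPM in mESCs. Its log2 fold change of -1.14 (SE 0.173, edgeR adjusted p = 0.000318) left 45.4% of the MEF mean in mESCs. Tfpi2, a matrix-bound inhibitor of plasmin and other proteases (chromosome 6, 3962595 to 3988919, minus strand), had 98, 71, 68 and 90 counts in MEFs, or 9.40, 10.8, 8.15 and 14.3 CPM. It had 0 counts in each of the 3 mESC libraries. Against a floor of 3 counts per library, Tfpi2 was at least 31.4-fold lower in mESCs, where its level was at most 3.19% of the MEF mean (edgeR adjusted p = 1.60e-05).

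For single genes, the exact permutation test over 35 arrangements of the libraries (two-sided, on log2CPM) gave p = 0.0286, the smallest that 4 against 3 libraries allow, for 7 of the 9. Plau and Plaur each gave p = 0.0571 in the same exact permutation test although their groups did not overlap, because the MEF libraries differed among themselves. No exon of the 9 genes overlaps an exon of another gene in GENCODE M21, on either strand. Of their 50-base transcript sequences, 0.123% of those of Tfpi and 0 of the other 8 genes also occur in another annotated gene.

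**Figure D2:**
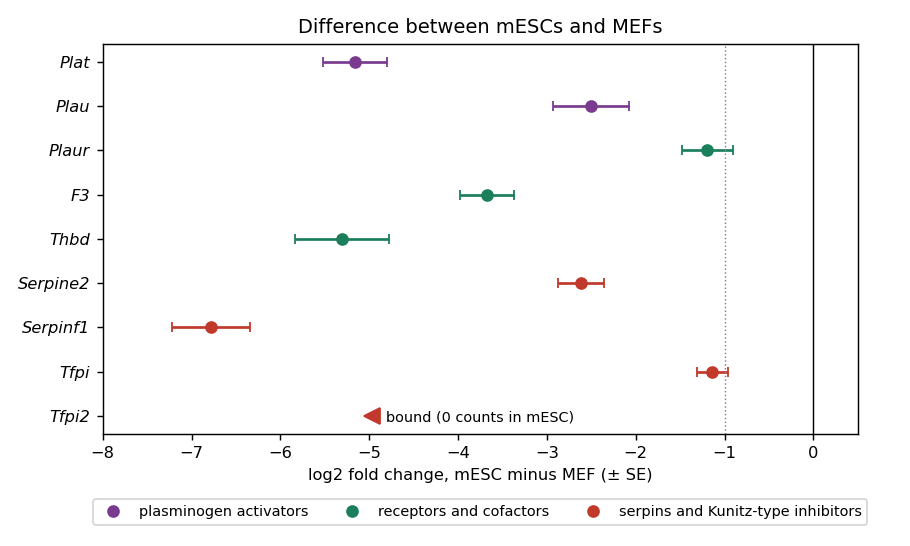
Fitted log2 fold change of mESCs minus MEFs (horizontal axis, points ± standard error, 4 MEF and 3 mESC libraries), coloured by group, with a dotted line at a fold change of 2. Serpinf1 lies farthest left at -6.78, Plaur (-1.19) and Tfpi (-1.14) lie next to the dotted line, and the triangle of Tfpi2 marks the bound set by 3 counts per library.

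Ratios between genes within a library do not depend on the scaling of libraries. The values of 4 such ratios of counts are given as a description, with no test, since the pairs were chosen after the values were seen. The ratio of Plat to Plau was 0.691 to 3.28 in MEFs and 0.0515 to 0.254 in mESCs. The mean log2 ratio differed by -3.07 between mESCs and MEFs, and by -2.31 without Y3, the library with the fewest Plat counts. The ratio of F3 to Tfpi, the starter of clotting and its inhibitor, was 0.713 to 1.62 in MEFs and 0.125 to 0.246 in mESCs, a difference of -2.58 on the log2 scale. Thbd to F3 was steady in MEFs, at 0.492 to 0.591, and ran from 0.0132 to 0.487 in mESCs, where Y3 came close to the MEF libraries and Y2 had a single count of Thbd. Its log2 difference of -2.41 became -0.93 without Y2 and -3.54 without Y3. The ratio of urokinase to its receptor, Plau to Plaur, was 0.422 to 1.60 in MEFs and 0.328 to 0.415 in mESCs, a difference of -1.22 on the log2 scale.

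The MEF libraries did not agree on the level of every regulator. The SD of log2CPM over the 4 MEF libraries was 0.91 for Plau, 0.57 for Plaur, 0.38 for Serpinf1, 0.37 for F3, 0.34 for Tfpi2, 0.32 for Serpine2, 0.28 for Thbd, 0.18 for Tfpi and 0.07 for Plat. Over all genes tested the median SD was 0.38, with quartiles of 0.23 and 0.62, so 3 of the 9 genes exceeded the median and Plau alone exceeded the upper quartile. Counting error by itself would give 0.07 for Plat, so its MEF libraries differed no more than their counts allow (without scaling beyond library size its SD was 0.11), and 0.09 for Plau. Leaving out a single library lowered the SD by more than 1.5 times for 7 of the 9 genes, among them Plat, whose SD was already at counting error. The share of all genes tested for which this holds was not computed, so it is not shown to be particular to the 9 genes. Without O4 the SD was 0.32 for Plau, 0.13 for F3, 0.07 for Thbd, 0.20 for Tfpi2 and 0.03 for Plat. The quartiles of all genes without O4 were not computed, so the rank of Plau among them without that library is not known. Without O1 it was 0.08 for Serpine2, and without O2 it was 0.22 for Serpinf1. For Plaur, leaving out any 1 library gave 0.46 to 0.66. The highest MEF library held 4.36 times the lowest for Plau, 2.29 times for Plaur and 1.11 times for Plat.

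Different libraries were low for different genes. O4 held the lowest level of Plau, F3 and Thbd, at deviations of -1.30, -0.53 and -0.41 from the gene's MEF mean on the log2 scale, and the highest level of Plat, Serpinf1 and Tfpi2. O1 was lowest for Serpine2 (-0.47) and Tfpi (-0.22). Plaur was higher in O1 and O2 (0.42 and 0.54) than in O3 and O4 (-0.65 and -0.31). The matrix gene Dcn, one of the fibroblast markers, went the other way to Plaur, with 121 and 149 CPM in O1 and O2 and 467 and 522 CPM in O3 and O4. So did the sum of the Y-linked genes given above. Dcn and the Y-linked genes were set beside Plaur after their values were seen, and their part in its spread was not tested.

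**Figure D3:**
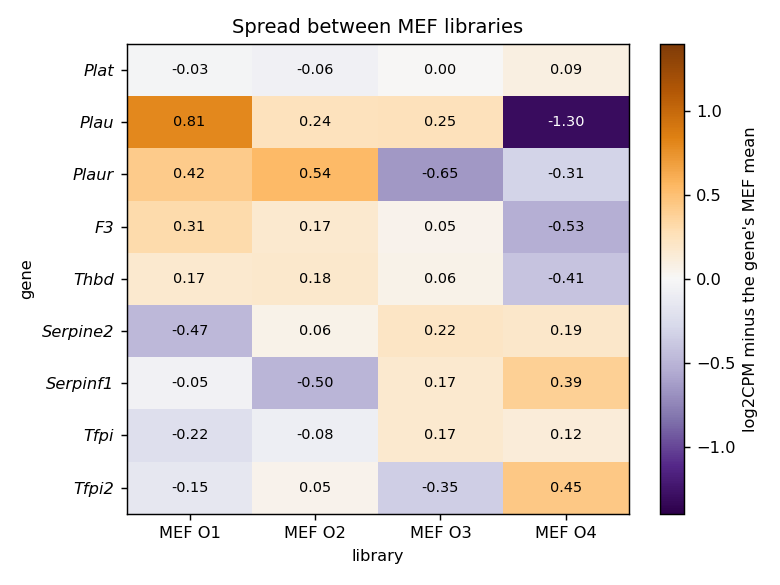
log2CPM of each regulator in each MEF library minus the gene's mean over the 4 MEF libraries (colour and printed value; orange above, purple below the mean). The row of Plau runs from 0.81 in O1 to -1.30 in O4, that of Plat from -0.06 to 0.09, and Plaur is above its mean in O1 and O2 and below it in O3 and O4.

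The low mESC counts of several regulators were set beside those of fibroblast genes. Across the 16 fibroblast markers, the mESC mean was 0.452% to 41.0% of the MEF mean, with a median of 1.44%, and their summed level was 391 to 443 CPM in the mESC libraries and 26953 to 43635 CPM in MEFs. None of the 16 was at 0 in all mESC libraries. Serpinf1 (0.909%) lay under the median marker. Thbd (2.51%), Plat (2.76%), F3 (7.81%), Serpine2 (16.3%) and Plau (17.7%) lay above it and within the range of the markers, and Plaur (43.7%) and Tfpi (45.4%) were above all 16. Whether fibroblast RNA accounts for part of the low mESC counts was not tested. Among the mESC libraries the values were uneven, since Y3 held the least Plat and F3 and the most Serpinf1 and Thbd, while Y2 held the least Serpinf1, Serpine2 and Thbd. Y3 was also the mESC library with the higher Y-linked sum, whose part in this was not tested. Primitive endoderm markers, which label a cell type that can arise in mESC cultures, summed to 106, 55.8 and 33.6 CPM over 12 genes in Y1, Y2 and Y3, and to 138 to 229 CPM in MEF libraries. The MEF sum includes Pdgfra, which is also a fibroblast marker. Of these 12 genes, 7 were higher and 2 lower in every mESC library than in every MEF library. Over all genes tested 26.2% were lower in this way, and the share higher was not computed. Only 5 of the 12 had enough counts to be tested, of which 2 were lower and 1 higher, beside 25.0% and 22.8% over all genes. Sox17 had 51, 41 and 9 counts in mESCs and 0 in each MEF library. Their part in the mESC levels was not tested.

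**Figure D4:**
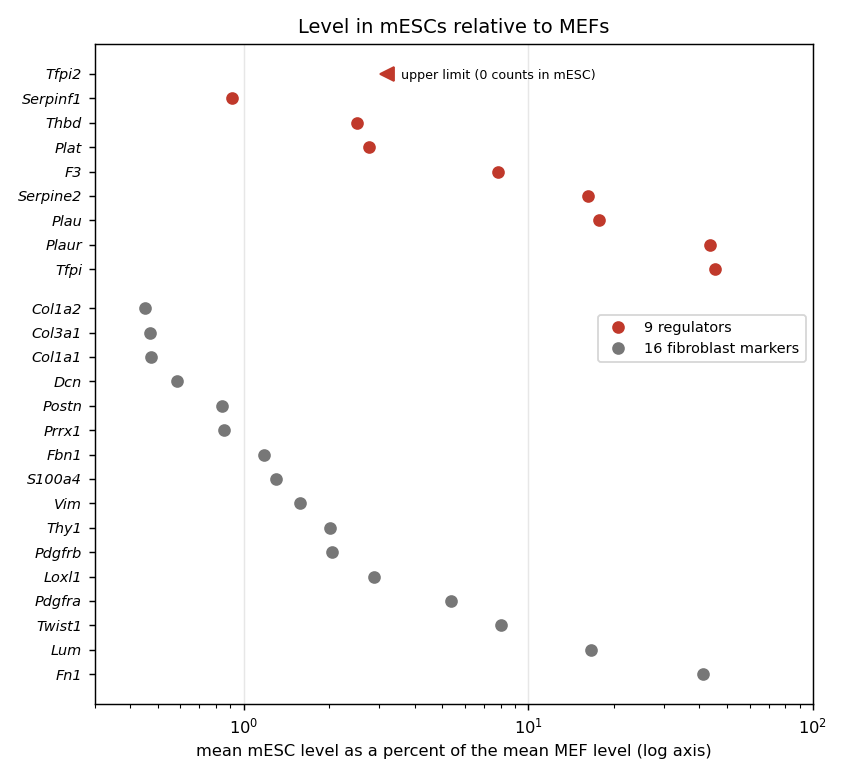
Mean mESC level as a percent of the mean MEF level (horizontal log axis) for the 9 regulators in red and 16 fibroblast markers in grey, 1 gene a row, from 4 MEF and 3 mESC libraries. Serpinf1, Thbd, Plat, F3, Serpine2 and Plau fall within the range of the markers, Plaur and Tfpi lie to the right of all of them, and the triangle is the upper limit of 3.19% for Tfpi2.

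Among the other genes of the plasminogen system, more fell than rose. Of 35 listed genes, 25 had enough counts to be tested, 15 were lower, 3 were higher and 7 did not pass the test (median log2 fold change -1.95), beside 25.0% lower and 22.8% higher over all genes tested. Plg, plasminogen itself, had at most 3 counts in any library. Anxa2 and S100a10, which form a plasminogen-binding complex at the cell surface, fell by 5.48 and 3.00 on the log2 scale. Mrc2, a collagen receptor that associates with the urokinase receptor, fell by 4.89, and Lrp1, which takes up complexes of proteases and serpins, fell by 2.10. The matrix protein gene Thbs1 fell by 5.42, and Pdgfd, a growth factor activated by plasminogen activators, had 94 to 171 counts in MEFs and 2 counts in each mESC library (edgeR adjusted p = 3.13e-06). The genes that rose were the endocytic receptors Lrp2 (from 1.52 to 18.7 CPM, edgeR adjusted p = 7.63e-05) and Sorl1 (from 3.42 to 20.2 CPM, edgeR adjusted p = 0.00290) and the membrane protease Hpn, with at most 4 counts in a MEF library and 21 to 32 in mESCs (edgeR adjusted p = 0.00312). Without O4, the log2 fold change of Sorl1 was 3.29 in place of 2.59, and that of Hpn 4.43 in place of 3.55. Pdgfd and Mrc2 passed the count filter only through the MEF libraries, and Lrp2 and Hpn only through the mESC libraries. Itgb3, Masp1 and Vldlr, which lie outside the naming rule, were called lower and also passed only through the MEF libraries. All of these genes therefore had to differ in order to be tested. The counts of lower and higher genes in this list include them. Anxa2, Thbs1 and Sorl1 overlap an antisense gene in their exons, which matters if reads were counted without strand.

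Of 36 other genes of clotting and its control, 19 were tested, of which 10 were lower and 4 higher in mESCs, and 5 did not pass the test (median log2 fold change -0.92), beside the same 25.0% and 22.8% over all genes. The 17 genes that were not tested had few counts. F2r, the thrombin receptor PAR1, fell from 264 ± 54.1 CPM (SD, n = 4 MEF libraries) to 15.1 ± 3.53 CPM (SD, n = 3 mESC libraries), a log2 fold change of -4.12 (edgeR adjusted p = 3.75e-07). Its relative F2rl1, the protease receptor PAR2, moved the other way, from 15.7 ± 6.79 to 47.5 ± 2.27 CPM (log2 fold change 1.59, edgeR adjusted p = 0.00109). Anxa5, which binds phosphatidylserine, fell by 4.99 on the log2 scale, the vitamin K-dependent proteins Gas6 and Pros1 fell by 4.05 and 2.66, and Procr, the protein C receptor that works beside thrombomodulin, fell by 2.62. The exons of Gas6 overlap those of Tmem255b on the other strand. Vwf rose from 10.7 to 23.4 CPM. F2, the thrombin precursor, had at most 3 counts in a MEF library and 26, 47 and 19 counts in mESCs (edgeR adjusted p = 0.000850), and Fgg, a fibrinogen chain, was at least 6.74-fold higher in mESCs against a floor of 3 counts per library, since every MEF library had 0. Its mESC counts were 45, 15 and 12, and without Y1, the library with the most primitive endoderm marker RNA, the bound was 3.95-fold. The part of those markers was not tested. The exons of Fgg overlap the antisense gene Gm30097. Among the genes named here, F2 and Fgg passed the count filter only through the mESC libraries and Procr only through the MEF libraries. These genes, too, had to differ in order to be tested, and they are part of the counts for this list. Proc, protein C, had 18, 6 and 2 counts in mESCs and 0 in MEFs and was not tested. F7 and F10, the clotting factors on which tissue factor acts, had at most 3 counts in any library.

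Among 67 other genes of the serpin family, 18 were tested, with 9 lower and 2 higher in mESCs and 7 that did not pass the test (median log2 fold change -0.98), again beside 25.0% lower and 22.8% higher over all genes. This family shares 6 genes with the plasminogen list and 3 with the coagulation list. Serpinh1, a collagen chaperone, fell from 2930.0 ± 202 CPM (SD, n = 4 MEF libraries) to 97.3 ± 33.2 CPM (SD, n = 3 mESC libraries), and Serpina3g fell from 39.6 to 0.330 CPM. Serpina3f had 30 to 49 counts in MEFs and 0 in mESCs, at least 15.1-fold lower against the floor, and Serpinb6b fell by 4.11 on the log2 scale. Serpinb6b rests on few counts, with 52, 20, 8 and 32 in MEFs and 0, 5 and 0 in mESCs. Its log2 fold change was -7.86 without Y2, and it had too few counts to be tested without O1, O2 or O4. The genes that rose were Serpinb6c, from 1.04 to 10.2 CPM, and Serpina3m, with 11 to 21 counts in mESCs and 0 in MEFs, at least 4.41-fold higher. Without Y1, the log2 fold change of Serpina3g was -7.72 in place of -6.81. That of Serpinb6c, 3.24 with all libraries, was 2.65 without Y1 and 3.84 without O3. Among the genes named here, Serpina3f, Serpina3g and Serpinb6b passed the count filter only through the MEF libraries. Serpinb6c and Serpina3m passed it only through the mESC libraries. Each of them had to differ in order to be tested. Of the 50-base sequences of Serpina3f, Serpina3g and Serpina3m, 8.15%, 12% and 7.74% also occur in other genes of the cluster, so their counts are uncertain. The exons of Serpina3m also overlap those of Serpina3k on the same strand.

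**Figure D5:**
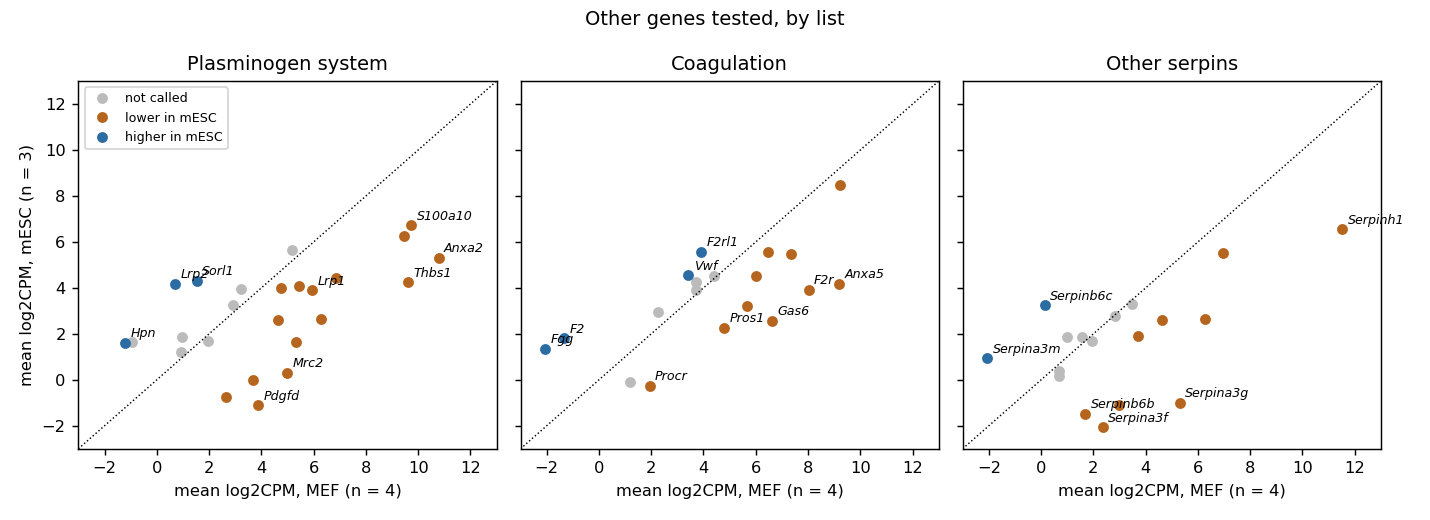
Mean log2CPM in MEFs (horizontal axis) against mESCs (vertical axis) for the tested genes of the plasminogen list (25), the coagulation list (19) and the other serpins (18), brown where lower and blue where higher in mESCs and grey where the test was not passed. Most coloured points lie under the dotted line of equal level, and Lrp2, Sorl1, F2rl1 and Serpinb6c lie above it.

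For each regulator, the genes with the most similar profile were found as those with the smallest root mean square difference in centred log2CPM over the 7 libraries, among genes with a mean log2CPM above 3. The nearest gene was Acadl for Tfpi (0.08), Cd276 for Serpine2 (0.12), Setd7 for Plaur (0.17), Ifngr2 for F3 (0.18), Cmtm3 for Plat (0.20), Dlk1 for Serpinf1 (0.30), Tsku for Plau (0.34) and Emp1 for Thbd (0.35). The second nearest were Cd81 for Tfpi (0.09), Mtch1 for Serpine2 (0.17), Hsd17b7 for Plaur (0.20), Apbb1ip for F3 (0.24), Kif26b for Plat (0.28), Pcdh18 for Serpinf1 (0.35), Wnt5a for Thbd (0.35) and Gdf11 for Plau (0.36). Tfpi2, whose profile in mESCs is set by the prior count, is left out. These distances are a description over 7 libraries that share their cell types, with no test.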

How the data were processed

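The table holds RNA-seq counts per gene for 4 MEF and 3 mESC libraries. The authors demultiplexed and trimmed the reads, aligned them to mm10 (GRCm38) with STAR (2.4.2a in the submitters' processing notes, while the paper's methods give another version), removed duplicates by molecular identifier (Je), assigned uniquely mapped reads to exons with featureCounts, and deposited raw counts. The annotation release and strand setting are not given in the sources used here. Columns name the cell type but not which labelled sample they are, so no library was matched to a sample number, and the number of unused sample columns was 0. In 26 rows the gene name has the form of a date; they held 0.249% of counts and stayed in the totals.

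Differential expression across all genes was tested in R 4.3.3 with edgeR 4.0.16, which calls limma 3.58.1: TMM scaling, filterByExpr (16580 of 55484 genes kept), a quasi-likelihood test with all 7 libraries and no covariate, and Benjamini-Hochberg adjustment over all genes tested at 0.05. Standard errors were taken from the fold change and its F statistic. log2CPM used a prior count of 2. Values of 3 counts or fewer were treated as at the floor, which, like all counts, covers counting error only. Single genes were compared by exact permutation tests over 35 arrangements. Coordinates come from GENCODE M21 and promoters from RefSeq, both on GRCm38. The code was tested on simulated data. Alternatives were DESeq2 1.42.0, other scalings and filters, a test against a fold change of 2, a prior count of 0.5 for the spread, and leaving out each library. The 9 genes and the lists were chosen with earlier results of these data known. Named genes beyond the 9 were direct partners, the 4 largest changes in each direction of a list among genes whose libraries did not overlap, and the 2 nearest profiles for each gene but Tfpi2; others are marked. A gene of the plasminogen list is not reported here by name.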

Additional observations from a re-analysis of the deposited data

Results flagged for a closer look

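Of 35 genes looked at in the 4 MEF libraries, 4 had a library far from the other 3 by Dixon's criterion, which chance meets in about 1 of 20 groups (1.75 of 35), and 0 of the 9 regulators did. Anxa2 held 2010.4 CPM in O2 and 1660 to 1709 CPM in the other MEF libraries. Serpinh1 held 3233 CPM in O3 and 2827 to 2833 CPM in the others. F7 held 0.159 CPM in O4, from 1 count, and F10 held 0.192 CPM in O1, from 2 counts. The other MEF libraries had 0 counts of each gene, and both values are under the floor of 3 counts. With 0 counts in the others, any count meets the criterion. The chance rate above therefore does not apply to F7 and F10.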

How the results depend on the processing

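No paired analysis was possible because the columns carry no sample number that could be matched to the labels, so a replicate block could not be fitted. The fold changes of the 9 regulators kept their direction in all 117 values under an alternative, and 115 kept their side of the threshold. The 2 that did not were Plaur and Tfpi in the test against a fold change of 2, which left 7 of 9 regulators called, 2277 genes lower and 1714 higher, by construction of a stricter test. Vwf (adjusted p = 0.359) was also lost there, the only change of call in the 321 values that could be computed for the 25 other tested genes that the naming rule chose. Serpinb6b had too few counts to be tested without O1, O2 or O4 or under the stricter filter, which asked for 10 counts throughout a cell type. Adjusted p-values of Plaur ran from 1.57e-06 to 0.291 over the alternatives, and those of Plau from 3.61e-20 to 0.00542. Leaving out 1 library in turn gave log2 fold changes of -1.38 to -1.01 for Plaur and -2.79 to -2.21 for Plau. The number of other plasminogen genes higher in mESCs was 3, and 5 without scaling beyond library size, 5 with DESeq2 and 3 to 5 when 1 library was left out, with 5 reached without O1. The number of other serpins higher was 2, and 4 with no filter beyond 1 count. The other counts were within 1.5 times the value reported. When 1 MEF library was left out, the SD of log2CPM over the rest ran from 0.323 to 1.10 for Plau, 0.132 to 0.449 for F3, 0.0653 to 0.337 for Thbd, 0.0835 to 0.392 for Serpine2, 0.222 to 0.462 for Serpinf1, 0.200 to 0.413 for Tfpi2 and 0.0309 to 0.0800 for Plat, and stayed within 1.5 times for Plaur and Tfpi. Without scaling beyond library size the SD of Plat was 0.110, against 0.0653. The depth limits Tfpi2, Thbd and Plat in mESCs, where libraries had 0 to 21 counts.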

Other observations

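Genes that prepare clotting proteins for secretion were looked at after their values were seen. Ggcx, the carboxylase that modifies vitamin K-dependent proteins such as Gas6 and Pros1, fell from 52.4 ± 14.2 CPM (SD, n = 4 MEF libraries) to 9.22 ± 1.80 CPM (SD, n = 3 mESC libraries), at a log2 fold change of -2.50 (edgeR adjusted p = 2.60e-05). Vkorc1, which recycles vitamin K for this enzyme, fell from 163 ± 30.6 to 45.2 ± 8.31 CPM (edgeR adjusted p = 3.25e-05), while its relative Vkorc1l1 held 21.2 CPM in MEFs and 23.3 CPM in mESCs (edgeR adjusted p = 0.678). Mcfd2 and Lman1, which together carry clotting factors V and VIII out of the endoplasmic reticulum, fell by 1.49 and 0.75 on the log2 scale.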
